A study of Mus musculus with 6 samples.

Results

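Histone acetyltransferases transfer acetyl groups from acetyl-CoA to lysines of the histone tails. A set of 10 genes was followed here, chosen by symbol: Ep300 and Crebbp, which encode p300 and CBP, Kat2a, Kat2b, Kat5, Kat6a, Kat6b, Kat7, Kat8 and Ncoa2. All 10 were found among the 37224 genes of the deposited table, and all 10 were among the 12588 genes with an RPKM (a read count scaled to gene length and library depth) of at least 1 in any library. The cells were mouse embryonic fibroblasts (MEF), labelled as primary cells on a C57BL/6 background and described as diploid and not tumorigenic. They were wild type or Dot1L-/-, lacking the methyltransferase of H3K79, and the labels give neither the deleted part of Dot1L nor how many clones or embryos the cells came from. Cells of each genotype were either left untreated (control) or exposed to arsenic, labelled low dose, for 24 h. The protocol lists 5 and 10 µM beside untreated cells and does not say which was sequenced. Each of the 4 groups held 1 RNA-seq library, so no difference below has a replicate check and no test was made.

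p300 and CBP are a pair of closely related coactivators that transcription factors recruit to enhancers and promoters, where they place most H3K27 acetylation. GCN5 (Kat2a) and PCAF (Kat2b) work inside the SAGA and ATAC complexes and acetylate H3K9. The MYST enzymes are TIP60 (Kat5), which acts on H4 and H2A and in the DNA damage response, MOZ and MORF (Kat6a, Kat6b), HBO1 (Kat7), which acts on H3K14, and MOF (Kat8), the main enzyme of H4K16 acetylation. Ncoa2 encodes a p160 coactivator of nuclear receptors that itself brings p300 and CBP to DNA.

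The promoters of 3 genes are shown because their genes span the range of responses: Ep300 had the lowest log2 difference of the set with arsenite, Kat7 was intermediate and Kat8 was counted as lower in neither genotype. Each is the stretch just before the annotated gene, 5′ to 3′ on the gene's strand, from RefSeq promoter windows of GRCm38.p6. Capitals mark the short cAMP response element motif TGACG, the GC box GGGCGG and the CCAAT box on either strand. Ep300 is at chr15:81585964-81586208 (plus strand), Kat7 at chr11:95310247-95310496 (minus strand) and Kat8 at chr7:127912267-127912516 (plus strand).
Ep300: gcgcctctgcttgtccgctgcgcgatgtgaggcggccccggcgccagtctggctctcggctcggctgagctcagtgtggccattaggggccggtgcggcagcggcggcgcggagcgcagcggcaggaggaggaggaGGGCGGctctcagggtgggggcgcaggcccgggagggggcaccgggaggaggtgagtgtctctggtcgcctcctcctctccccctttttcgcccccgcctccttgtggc
Kat7: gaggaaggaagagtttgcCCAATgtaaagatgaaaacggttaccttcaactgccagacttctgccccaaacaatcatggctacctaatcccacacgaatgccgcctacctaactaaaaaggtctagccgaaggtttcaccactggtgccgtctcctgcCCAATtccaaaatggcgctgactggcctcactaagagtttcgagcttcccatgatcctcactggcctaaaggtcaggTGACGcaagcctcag
Kat8: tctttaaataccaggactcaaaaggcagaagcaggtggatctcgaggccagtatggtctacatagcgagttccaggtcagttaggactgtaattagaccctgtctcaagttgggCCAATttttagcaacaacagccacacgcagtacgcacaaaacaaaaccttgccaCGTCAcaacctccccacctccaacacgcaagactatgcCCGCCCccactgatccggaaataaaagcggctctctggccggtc

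Windows of 250 bases before to 50 after the start were on hand for 8 of the 10 genes (12 windows, since some genes have several starts). Both windows of Kat6b overlap over most of their length, so a match there can count in each, and windows of a gene are not independent. The GC content of these windows ran from 47% (Kat2b) to 82% (Crebbp), and that of Ep300 was 72.3%, against a median of 52.7% over 32851 mouse windows. GGGCGG was found on either strand in 7 of the 12 windows, in Crebbp, Ep300, Kat5, Kat6b and Kat8, and in 35.7% of all windows. CCAAT was found in 5 (Kat2b, Kat5, Kat7 and Kat8), and in 37.4% of all. TGACG was found in 6 (Kat2a, Kat2b, Kat5, Kat7 and Kat8), and in 20.8% of all. The full element TGACGTCA, which contains TGACG, was in 0 of the 12 and in 1.79% of all. Of motifs linked to stress, the antioxidant response element TGACNNNGC, which can overlap TGACG, was found in 1 window (Kat8; 12.4% of all). The metal response element core TGCNCNC was found in 7 (51.0% of all). These matches describe the sequences only.

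The arsenite libraries were far shallower than the controls. Depths recovered from the RPKM values were 62972880 reads without and 10833103 with arsenite in wild type, and 64699847 and 11879632 in the null, so the controls were 5.81 and 5.45 times deeper. The 100 genes with most reads took 16.5 to 20.2% of the depth in the controls and 34.6 to 41.3% with arsenite. Dot1l was 3.17-fold lower (95% counting interval 3.07 to 3.26) in the null than in wild type without arsenite and 4.61-fold lower (3.79 to 5.63) with it, and was present in all 4 libraries. Of 11 fibroblast markers, 7 or 8 had an RPKM of at least 1 in each library, with Thy1 at 0 in all 4. On the log2 scale defined below, 6 of the 8 past the filter were at least 2-fold lower and 1 higher with arsenite in wild type (median −2.50). In the null 3 were lower and 1 higher (median −0.83). Over all genes 35.7% and 37.1% were lower. With the running median on gene length subtracted, 5 were lower and 1 higher in wild type (median −1.10). In the null 1 was then lower and 2 higher (median 0.35). Col1a1 was at 335 and 63.9 RPKM in wild type and Dcn at 60.7 and 3.85. The summed RPKM of the list, 2653 and 2275 in the controls and 4990 and 12118 with arsenite (wild type, then null), follows S100a4, which was at 688 and 949 in the controls and 4191 and 10957 with arsenite. Markers of other cell types were mostly low: at most 3 of 7 macrophage and leukocyte, 1 of 6 epithelial and 1 of 5 endothelial markers reached an RPKM of 1, and of 5 pluripotency and germ line genes 0 did. Of 6 neural and glial markers, 3 did in each library (Sox2, Tubb3 and Nes), with sums of 122 in the wild-type control and 34.7 to 44.2 elsewhere. The part of these differences in the results below was not tested, and fewer cells of a type cannot be told apart from less RNA per cell.

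In wild-type cells arsenite went with lower RNA of most of the set. Differences are given as log2((RPKM + 1)/(RPKM + 1)), on which weakly expressed genes appear to differ less than they do, and a gene was counted as lower or higher at 2-fold on it. Of the 10 genes 7 were lower and none higher. Over all genes tested 35.7% were lower and 12.8% higher. The median log2 difference of the 10 was −1.65, against −0.56 over all genes. In Dot1L null cells 8 were lower and none higher, against 37.1% lower and 15.2% higher over all genes, and the medians were −2.20 and −0.53. The 7 genes lower in wild type were all among the 8 lower in the null, and 26.3% of all genes were lower in both.

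**Figure D1:**
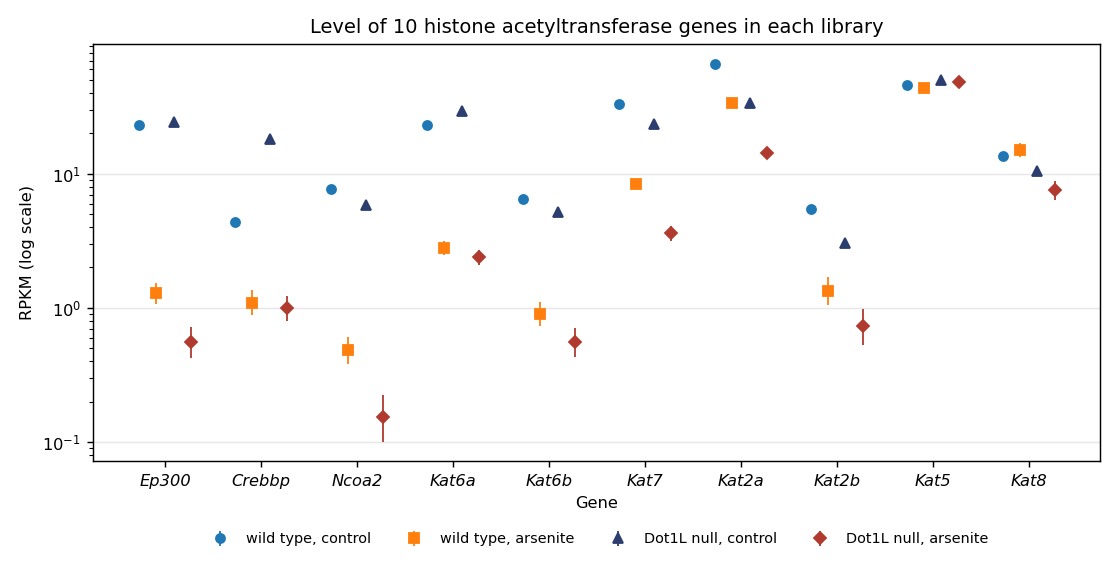
RPKM on a log scale of the 10 genes in each of the 4 libraries, with bars for the 95% Poisson interval of the read count, which covers counting error only. With arsenite 7 of the genes, all but Kat2a, Kat5 and Kat8, are counted as lower in both genotypes, as are 26.3% of all genes. The values of Kat5 lie close together, between 43.4 and 50.5 RPKM.

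p300 stood out. Ep300 (ENSMUSG00000055024, chromosome 15, 81586209 to 81652077 in GRCm38) stood at 23.1 RPKM without and 1.29 with arsenite in wild type, and at 24.2 and 0.558 in the null, from 12753, 122, 13692 and 58 reads. Both controls were high and similar, and both arsenite libraries were low. With arsenite it was 18.0-fold lower in wild type (15.05 to 21.7) and 43.3-fold lower in the null (33.5 to 57.1). Only 0.596% of the genes tested in wild type, and 0.564% in the null, had a log2 difference as low or lower. Among the 10 genes Ep300 ranked the 4th most abundant in both controls, the 7th in wild type with arsenite and the 8th in the null with arsenite.

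CBP differed from p300 in its control levels. Crebbp (ENSMUSG00000022521, chromosome 16, 4081334 to 4213957) stood at 4.35, 1.09, 18.1 and 1.00 RPKM, in the same order, so the null control stood above the other 3 libraries and the 2 arsenite libraries were alike. It was 3.97-fold lower with arsenite in wild type (3.21 to 4.97) and 18.2-fold lower in the null (14.7 to 22.6). The ratio of Ep300 to Crebbp RPKM was 5.32 and 1.33 in the controls (wild type, then null) and 1.18 and 0.559 with arsenite. Of the summed RPKM of the 10 genes, Ep300 and Crebbp together held 12.0% and 20.7% in the controls, against 2.19% and 1.96% with arsenite.

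Ncoa2, the p160 coactivator, was the longest gene of the set at a recovered length of 14344 bases. Its RPKM was 7.64, 0.483, 5.89 and 0.153, with 6905, 75, 5463 and 26 reads. As with Ep300, both arsenite libraries were far below both controls. It was 15.8-fold lower in wild type (12.6 to 20.2) and 38.6-fold lower in the null (26.3 to 59.1), though its log2 differences with the added 1 were −2.54 and −2.58.

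Of the GCN5 and PCAF pair, Kat2a was the most abundant gene of the set in the wild-type control. It stood at 66.1 RPKM without and 33.7 with arsenite in wild type, and at 33.7 and 14.3 in the null. The untreated null library thus stood at the level of the arsenite-treated wild type. With arsenite it was 1.96-fold lower in wild type (1.85 to 2.08), log2 difference −0.95 and not counted, and 2.36-fold lower in the null (2.17 to 2.57). Kat2b was weakly expressed throughout, at 5.42, 1.35, 3.05 and 0.726 RPKM, and was 4.02-fold (3.17 to 5.18) and 4.20-fold (3.08 to 5.87) lower. The RPKM ratio of Kat2a to Kat2b was 12.2 and 11.0 in the controls and 25.0 and 19.6 with arsenite.

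Of the 5 MYST enzymes, 3 were counted as lower in both genotypes and 2 in neither. Kat6a, which encodes MOZ, had RPKM values of 23.1, 2.81, 29.5 and 2.37 and was 8.22-fold (7.30 to 9.29) and 12.4-fold (11.0 to 14.1) lower. Kat6b, its paralog MORF, had values of 6.51, 0.906, 5.14 and 0.557 and was 7.18-fold (5.88 to 8.87) and 9.24-fold (7.24 to 12.0) lower. For both genes each arsenite library was far under each control. Kat7, which encodes HBO1, had values of 33.0, 8.40, 23.5 and 3.60. It was 3.92-fold (3.59 to 4.30) and 6.53-fold (5.74 to 7.46) lower.

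TIP60 and MOF were not counted as lower in either genotype. Kat5 had RPKM values of 46.0, 43.4, 50.5 and 48.5, all 4 within a narrow range. The ratio of arsenite to control was 0.944 (0.880 to 1.011) in wild type and 0.960 (0.901 to 1.023) in the null, and both intervals include 1. Centred on the median of all genes, Kat5 was at 0.48 in each genotype, above 0. Kat8 had values of 13.7, 15.1, 10.5 and 7.55. Its ratio was 1.108 (0.966 to 1.267) in wild type and 0.720 (0.599 to 0.859) in the null, where it was 1.39-fold lower (1.16 to 1.67), an interval without 1, and not counted. With centring its log2 difference in the null turned from −0.43 to 0.11. Of the summed RPKM of the set, Kat5 took 20.1% without and 40.0% with arsenite in wild type, and 24.7% and 61.2% in the null. That sum was 228.8, 108.5, 204.1 and 79.3 RPKM in the 4 libraries. The ratio of Kat5 to Ep300 was 1.99 and 2.09 in the controls and 33.7 and 86.9 with arsenite (wild type, then null).

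**Figure D2:**
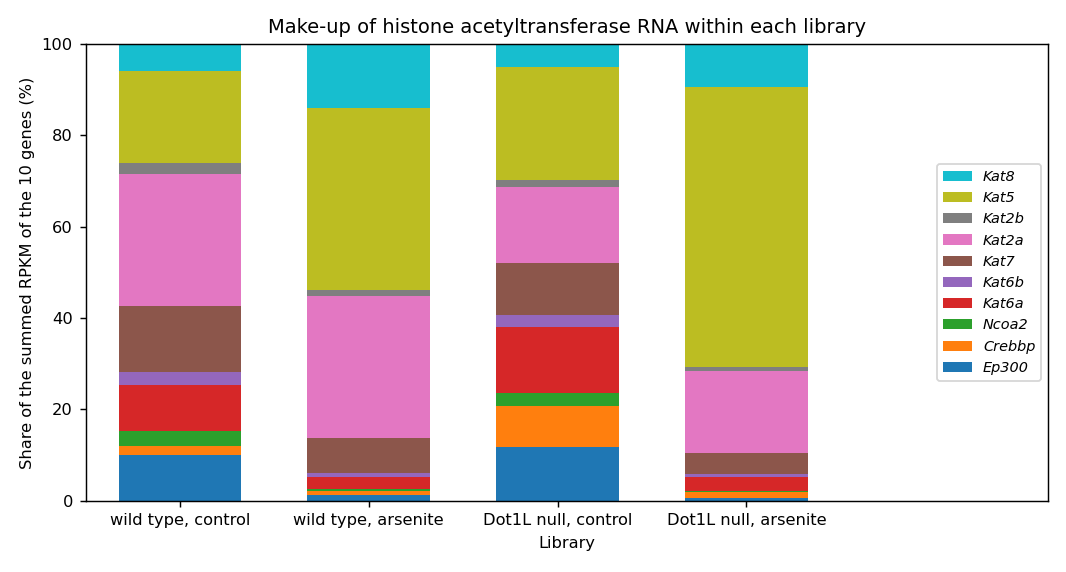
Share of the summed RPKM of the 10 genes held by each, in percent, with 1 bar for each library. Kat5 holds 20.1% and 24.7% in the controls and 40.0% and 61.2% in the arsenite libraries, while Ep300 and Crebbp together shrink to 2.19% and 1.96%.

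Gene length ran alongside these differences. Over all genes, 15.5% of those under 3000 bases, 43.1% of those from 3000 to under 6000 and 65.5% of those of 6000 or more were lower with arsenite in wild type (19.2%, 44.4% and 60.7% in the null). These length classes were chosen after the values were seen. The 5 genes of 6000 bases or more (Ep300, Crebbp, Kat6a, Kat6b and Ncoa2) were all lower in both genotypes. The 2 under 3000 bases, Kat5 and Kat8, were lower in neither. Of the 3 between, Kat2b and Kat7 were lower in wild type and all 3 in the null.

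With the running median on length subtracted, 3 of the 10 were lower in wild type (Ep300, Kat6a and Ncoa2) and 5 in the null (the same 3 with Crebbp and Kat7), against 15.3% and 21.7% of all genes with a length. The median of the 10 was then −0.45 and −0.91. Ep300 was the lowest of the set in both, at −1.99 and −2.67, with 2.79% and 2.23% of genes as low or lower. Crebbp was at 0.04 in wild type, on the line, and at −1.95 in the null. Kat5 was at −0.09 and −0.03. Kat8 was at −0.09 and −0.70, the latter lower than Kat6b at −0.62. Library depth moved with treatment in both genotypes, and its part and that of RNA integrity in the length trend were not tested.

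**Figure D3:**
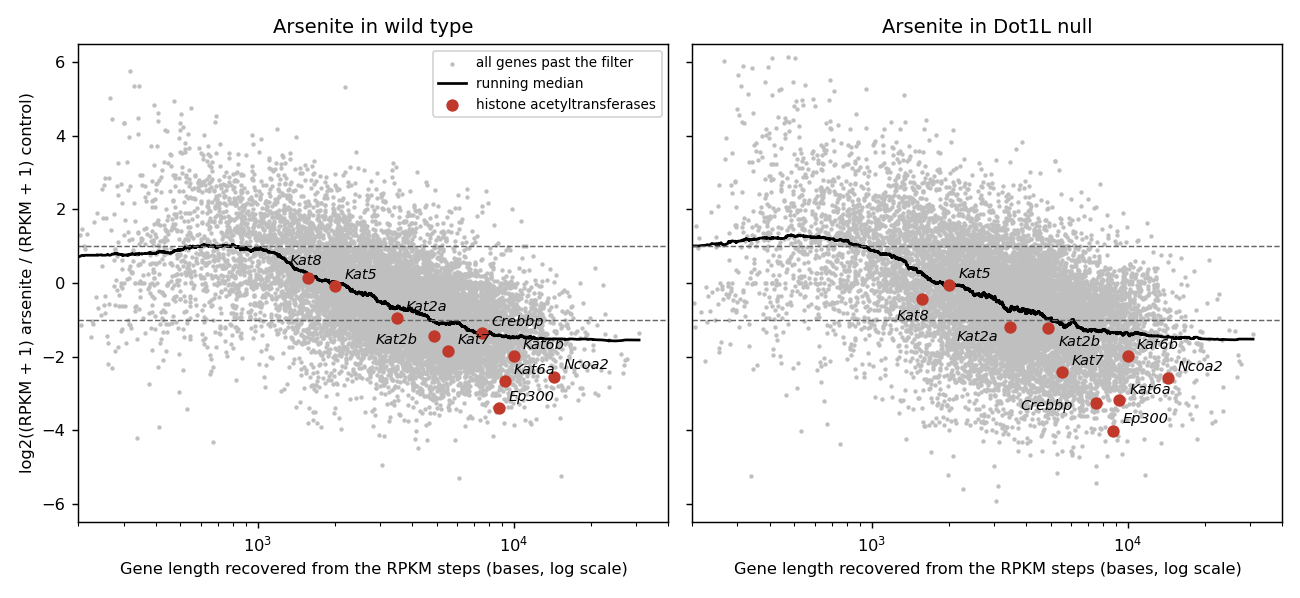
Log2 difference between arsenite and control against the recovered gene length in bases (log scale), in wild type (left) and Dot1L null (right). Grey points are all genes past the filter with a length, the black line is their running median over neighbouring genes, dashed lines mark 2-fold, and red points are the 10 genes. Among the 10 genes, Ep300 lies farthest under the line in both panels, and Kat5 lies near it.

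Without arsenite, 1 gene of the set was higher in Dot1L null than in wild-type cells. Crebbp was 4.17-fold higher in the null (3.97 to 4.37; log2 difference 1.84), and none of the 10 was counted as lower. Over all genes 14.7% were lower and 6.45% higher. Ep300 was nearly the same in both controls, with a ratio of 1.045 (1.020 to 1.071). Kat2a was 1.96-fold lower (1.91 to 2.02), log2 difference −0.95, and Kat2b 1.77-fold lower (1.64 to 1.92). Kat7, Kat8, Ncoa2 and Kat6b lay between 1.27-fold and 1.40-fold lower, while Kat6a was 1.28-fold and Kat5 1.099-fold higher. The median log2 difference of the set was −0.31, against −0.17 over all genes.

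With arsenite in both genotypes, Kat2a and Kat7 were counted as lower in the null and none was higher, against 16.9% lower and 8.75% higher over all genes. Kat2a was 2.36-fold lower (2.14 to 2.61) and Kat7 2.33-fold lower (1.99 to 2.73). By reads, Kat8 was 2.01-fold lower (1.63 to 2.48), Ep300 2.31-fold (1.67 to 3.21) and Ncoa2 3.16-fold (2.00 to 5.15), though on the scale with the added 1 they were at −0.92, −0.55 and −0.36. Crebbp, so different between the controls, was alike here, with a ratio of 0.912 (0.672 to 1.24). Neither of the 2 counted genes passed once the running median on length was subtracted, or when differences were centred on the overall median.

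**Figure D4:**
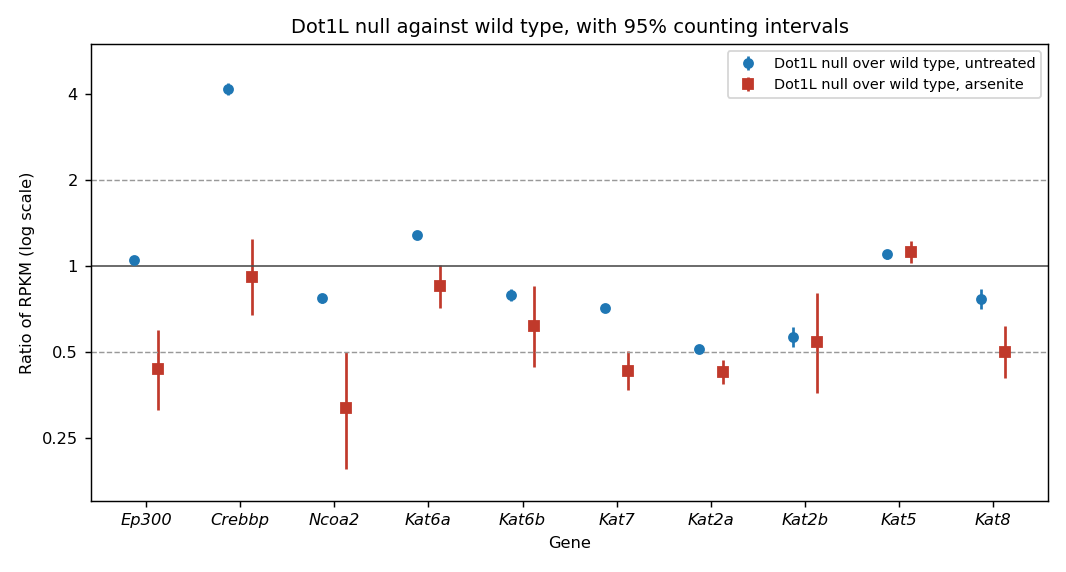
Ratio of RPKM in Dot1L null to wild type (log scale) for the 10 genes, without arsenite (circles) and with arsenite (squares), with bars for the 95% counting interval. The dashed lines mark 2-fold. Crebbp stands at 4.17 without arsenite and at 0.912 with it, and Kat2a is near or under 0.5 in both.

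The arsenite difference itself, null minus wild type on the log2 scale, was −1.91 for Crebbp, from −1.35 in wild type and −3.26 in the null. It was the only gene of the set past 1 in size, against 12.8% of all genes at −1 or less and 12.1% at 1 or more. By reads the fold in the null was 4.57 times that in wild type (3.35 to 6.23), with controls that differed and arsenite libraries that were alike. Ep300 was at −0.61, with a fold 2.41 times as large in the null (1.75 to 3.36). For Ncoa2 the log2 value was −0.04, but by reads the fold was 2.44 times as large (1.54 to 3.97). Kat5 (0.02) and Kat6b (−0.0030) were nearly equal between genotypes on the log2 scale. These values use the same 4 libraries as the comparisons above and are not separate evidence.

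The partners of these enzymes were counted from lists of complex subunits and related genes. Of 22 SAGA and ATAC subunits, which hold GCN5 or PCAF, 11 were lower and 3 higher with arsenite in wild type (median −1.14), and 13 and 2 in the null (median −1.60). Over all genes 35.7% and 37.1% were lower and 12.8% and 15.2% higher. After subtraction of the running median on length, 8 of the 22 were lower and 4 higher in wild type, and 11 and 5 in the null. Of all genes with a length, 15.3% were lower and 15.9% higher on that scale in wild type, and 21.7% and 19.2% in the null. Zzz3, an ATAC subunit, stood at 38.0 RPKM without and 3.71 with arsenite in wild type, and at 38.8 and 2.24 in the null, and pairs of values below keep this order. Usp22, the ubiquitin protease of SAGA, went from 56.3 to 7.01 and from 35.7 to 3.48, and Supt20, a SAGA core subunit, from 15.2 to 1.41 and from 15.5 to 0.642. Dr1 had no read in the null with arsenite, where the control was 5.45 times deeper, and its other levels are not given here.

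Of 17 TIP60 complex subunits apart from Kat5, 6 were lower and 1 higher in wild type, a share near that of all genes (median −0.58), and 12 lower and 1 higher in the null (median −1.53). Over all genes 35.7% and 37.1% were lower and 12.8% and 15.2% higher. Once that length median was subtracted, 3 of the 17 were lower and 2 higher in wild type, and 8 and 2 in the null. On that scale 15.3% and 21.7% of all genes with a length were lower and 15.9% and 19.2% higher. Ep400, its chromatin remodeller, went from 19.8 to 1.96 RPKM and from 14.0 to 0.813. Trrap, a scaffold shared with SAGA, went from 18.2 to 2.99 and from 26.5 to 2.18, and Epc2 from 25.3 to 2.50 and from 18.2 to 1.45. Whether the lists differ from each other, or a list between genotypes, was not tested.

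For the MOZ, MORF and HBO1 complexes, 7 of 9 subunits were lower in each genotype and none higher (medians −1.41 and −2.07). Over all genes 35.7% and 37.1% were lower and 12.8% and 15.2% higher. The median length of these subunits was 6675 bases, and 65.5% and 60.7% of all genes of 6000 bases or more were lower. Net of the length median, 0 of the 9 were lower and 2 higher in wild type (median −0.26), and 3 and 1 in the null (median −0.83). On that scale 15.3% and 21.7% of all genes with a length were lower and 15.9% and 19.2% higher. Median centring left 4 of the 9 lower in wild type. The share of all genes lower after centring is not given here, for this list or those below. Brd1, a scaffold of these complexes, went from 21.6 to 3.41 and from 20.8 to 0.993 RPKM, and Brpf1 from 14.6 to 2.65 and from 11.7 to 1.93. Of 11 subunits of the MSL and NSL complexes of MOF, 8 and 9 were lower and none higher (medians −1.56 and −2.35), and 5 and 8 net of the length median, then with 1 higher in the null. Kansl1 went from 17.1 to 2.50 and from 22.7 to 1.20, Hcfc1 from 66.3 to 10.7 and from 58.8 to 5.67, and Ogt, which attaches N-acetylglucosamine to proteins, from 36.7 to 7.92 and from 42.9 to 6.25.

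Of 19 binding partners and coactivators of p300 and CBP past the filter, of 20 listed, 12 and 14 were lower and none higher (medians −1.53 and −1.49). Over all genes 35.7% and 37.1% were lower and 12.8% and 15.2% higher. Net of the length median, 8 and 6 of the 19 were lower, and median centring left 9 of them in the null. With length corrected for, 15.3% and 21.7% of all genes with a length were lower and 15.9% and 19.2% higher. Hif1a, the transcription factor of the hypoxia response, went from 48.7 to 1.57 and from 60.3 to 2.64 RPKM. Maml1, the Notch coactivator, went from 20.2 to 1.04 and from 37.8 to 0.640. Cited2, which competes with HIF-1 for p300 and CBP, went from 102 to 24.7 and from 177 to 16.9. Of 15 other acetyltransferases and p160 coactivators, 8 and 10 were lower (medians −1.16 and −2.12) and 1 was higher in each genotype, Naa10, an N-terminal acetyltransferase, at 2.94 and 14.3 RPKM in wild type and 4.05 and 40.0 in the null. Net of the length median, 1 was lower and 2 higher in wild type (median −0.28), and 7 and 2 in the null (median −0.98), and median centring left 5 lower in wild type. Clock went from 12.8 to 0.951 and from 8.89 to 0.191, and Ncoa1, a relative of Ncoa2, from 7.09 to 0.894 and from 8.33 to 0.620.

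Of 10 genes of acetyl-CoA supply past the filter, of 11 listed, 5 were lower in each genotype and 1 higher in the null (medians −0.97 and −0.96). With length corrected for, 2 were lower in wild type (median 0.04) and 3 lower and 2 higher in the null (median −0.43), and median centring left 2 and 3 lower. Acly, which makes acetyl-CoA from citrate in the cytosol, went from 102 to 17.0 and from 48.9 to 15.9 RPKM. Slc25a1, the mitochondrial citrate carrier, was 21.1 and 25.6 in wild type and went from 22.6 to 68.8 in the null. Of 21 bromodomain and YEATS readers past the filter, of 22 listed, 14 and 15 were lower and none higher (medians −1.29 and −1.51). Net of the length median, 2 were lower in wild type (median −0.0036) and 6 lower and 1 higher in the null (median −0.29), and median centring left 8 lower in wild type. The readers included Brd2 (71.7 to 20.0 and 76.5 to 8.64) and Pbrm1 (22.5 to 3.30 and 17.3 to 1.91). Of all genes 35.7% and 37.1% were lower and 12.8% and 15.2% higher. Of those with a length, 15.3% and 21.7% were lower and 15.9% and 19.2% higher once corrected for it.

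**Figure D5:**
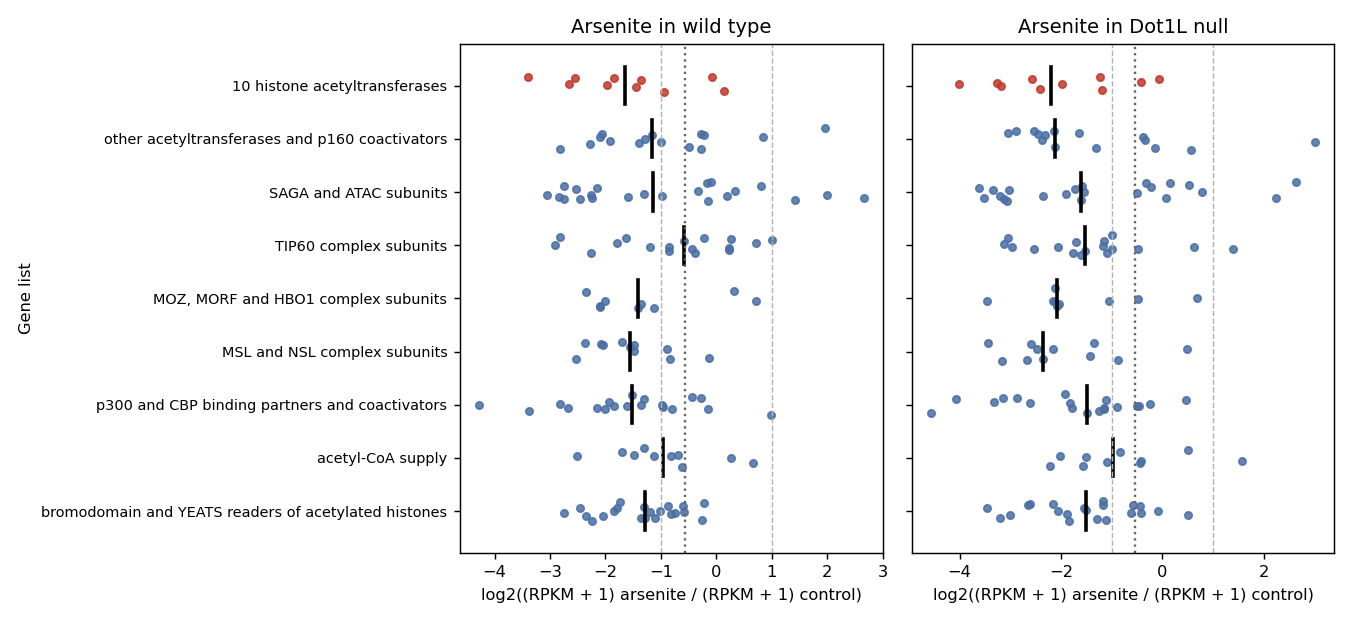
Log2 difference between arsenite and control of each gene past the filter in the set of 10 (red) and in 8 lists of related genes (blue), in wild type (left) and Dot1L null (right). Black bars are list medians, the dotted line is the median of all genes and dashed lines mark 2-fold. The medians of the 10 genes are −1.65 and −2.20.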

How the data were processed

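Per the labels' protocols, a Ribo-zero kit depleted ribosomal RNA and strand-specific paired-end libraries were made by the dUTP method, whereas the molecule label reads polyA RNA. TopHat, HTSeq, Bowtie, deepTools and the build mm10 are named in the submitters' processing notes, with no versions or roles. For the gene annotation and the strand option used in counting, the sources used here give nothing. The authors deposited RPKM values of 37224 Ensembl gene IDs in 4 libraries, and a symbol was matched for 35449 IDs. The 2 H3K27ac ChIP-seq libraries were not analysed here.

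The depth of each library was inferred from small RNA genes with a unique RefSeq length. It was the value found most often when the RPKM of such a gene was taken as 1 read. Reads and gene lengths are those that, at these depths, turn every value of a gene into whole reads (relative tolerance 1e-12). Such a length may be a whole fraction of the true one. No count model was fitted. Differences used a pseudocount of 1 over genes that reached an RPKM of 1 in any library, with no further scaling. Intervals of ratios are exact conditional Clopper-Pearson 95% intervals of reads, and those of levels exact Poisson. Both cover counting error only and take each read as an independent molecule. One read in Ep300 was worth 0.00182 and 0.00177 RPKM in the controls and 0.0106 and 0.00962 with arsenite. The length trend was the running median over 501 genes of at least 200 bases. The recovery of gene lengths, up to a whole fraction, and the raw ratio of RPKM were tested on simulated reads. The depths, the counts at 2-fold, the intervals and the length trend were not.

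All 10 genes are named, with up to 3 genes per list (those most different in each arsenite comparison), the 5 genes nearest to Ep300 and Dot1l. Some genes that this rule selects are given only in their list counts or are not reported here. The members and lists were chosen with earlier results of these data known. Gene positions and promoters are from RefSeq, GRCm38.p6. Alternatives were pseudocounts of 0.1 and 5, no filter, a filter at 5, centring on the median, scaling to the 75th percentile, removal of the length trend and a 1.5-fold threshold. Python 3.11.15, numpy 2.4.6, pandas 2.3.3, scipy 1.17.1 and matplotlib 3.10.9 were used.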

Additional observations from a re-analysis of the deposited data

Results flagged for a closer look

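Kat8, which encodes MOF, had log2 differences between arsenite and control of opposite sign in the 2 genotypes, 0.14 in wild type and −0.43 in the Dot1L null, a difference of −0.57. The counting interval of the ratio in wild type included 1 (0.966 to 1.267). The signs were opposite only without scaling: both were negative with the length trend removed (−0.09 and −0.70) and both positive after median centring (0.70 and 0.11) and scaling to the 75th percentile (0.62 and 0.14). The difference itself lay between −0.62 and −0.41 over the alternatives. It was the only 1 of the 43 genes looked at (the 10 of the set and the list genes picked by the naming rule) for which this held. The difference was not tested, since each group held 1 library, and neither value passed 2-fold.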

How the results depend on the processing

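No paired analysis was possible because each group held 1 library, and for the same reason no library could be left out. Of the 40 differences of the set (10 genes in 4 comparisons), 7 changed sign under 1 or more of the alternatives, by setting 5 after median centring, 5 after scaling to the 75th percentile and 4 with the length trend removed. They are Kat5 and Kat8 with arsenite in both genotypes, Crebbp and Kat6a between the genotypes with arsenite, and Crebbp with arsenite in wild type, the only 1 of them past 2-fold, which was 0.0445 with the length trend removed. The count of the 10 genes lower with arsenite in wild type was 7. It became 4 with a pseudocount of 5, 5 after median centring, 3 with the length trend removed and 8 at 1.5-fold. In the null it was 8. There it became 6 with a pseudocount of 5, 6 after median centring, 6 after scaling to the 75th percentile and 5 with the length trend removed. Between the null and wild type with arsenite it was 2 and became 4 with a pseudocount of 0.1, 1 with a pseudocount of 5 and 3 at 1.5-fold. That count became 0 after median centring, after scaling to the 75th percentile and with the length trend removed. Without arsenite it was 0 and became 2 at 1.5-fold. Settings not named left these counts unchanged. For arsenite against control, the share of all genes lower is given only for the main setting and with the length trend removed. Between genotypes it is given only for the main setting. No filter and a filter at an RPKM of 5 left all 40 differences as they were, which was fixed in advance. A filter only selects genes, and all 10 passed both. Past its counting interval, a pseudocount of 0.1 moved 17 of the differences and a pseudocount of 5 moved 24. Median centring moved 33, the 75th percentile 22 and the length trend 31. Of the counts of lower genes in the lists of partners, those that pseudocount or scaling moved by over 1.5 times were, in wild type, MOZ, MORF and HBO1 subunits (4 with a pseudocount of 5), acetyl-CoA supply (2 with a pseudocount of 5) and readers (9 with a pseudocount of 5 and 9 with the 75th percentile), and, in the null, TIP60 subunits (7 with a pseudocount of 5), p300 and CBP partners (9 with the 75th percentile) and acetyl-CoA supply (2 with the 75th percentile), besides those given with the lists and 5 other acetyltransferases in wild type with the 75th percentile. Depth limits the lowest values: Ncoa2 had 26 reads and Ep300 58 in the null with arsenite.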

Other observations

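Among 11239 named genes past the filter, the 5 whose pattern over the 4 libraries lay nearest to that of Ep300 (Euclidean distance of centred log2(RPKM + 1) values, 0.170 to 0.218) included Zfp869, Eea1, Zscan25 and Epha2. Eea1, an early endosome tether, stood at 19.0 and 1.13 RPKM (wild type without and with arsenite) and at 18.8 and 0.258 (null). Epha2, an ephrin receptor, stood at 68.2, 5.75, 62.1 and 2.90 in the same order. Recovered lengths of these 4 genes ran from 1590 bases (Zfp869) to 7836 (Eea1), so short genes were among them.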
